A study of Mus musculus with 4 samples.

Results

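The circadian clock genes described here are 10 genes chosen for their textbook role: Arntl, Clock, Per1, Per2, Cry1, Cry2, Nr1d1, Nr1d2, Bhlhe40 and Nfil3. They were found by symbol among 24148 genes of a count table, after the RefSeq accessions of each gene had been summed, and all 10 were present. RNA was sequenced in 4 libraries of cultured mouse microglia, which are macrophages that live in brain tissue. The control group (2 libraries) received no LPS, and the LPS group (2 libraries) received lipopolysaccharide, a bacterial cell wall molecule that macrophages sense through Toll-like receptors, at 10 ng/ml for 4 h. Cells of both groups had been shaken off mixed glial cultures kept in serum and plated again. No sort for microglia is described, and the sources used here give no mouse strain, age or sex. They also name no step that synchronises the cells and no hour of collection, so the phase of the clock in either group is not known. Nothing in the labels ties a replicate to a culture or animal of its own, so p-values reflect the spread between these libraries and that spread may be technical.

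The clock of mammalian cells is a loop of transcription factors that shut off their own genes. CLOCK and the Arntl product (BMAL1) bind E-box sequences and switch on the Per and Cry genes, whose proteins return to the nucleus and repress them. A further loop is run by the nuclear receptors Nr1d1 and Nr1d2 (REV-ERB alpha and beta), which repress Arntl, while Nfil3, a repressor at D-box sequences, and Bhlhe40, a repressor at E-boxes, link the loops to other signals. In macrophages, REV-ERB proteins and BMAL1 are known to restrain inflammatory genes.

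Total counts ran from 3617176 to 5095630 per library. The unit of level is CPM, a count divided by its TMM-scaled library size, in which 1 count was worth 0.192 to 0.263 CPM. Of 10 microglia markers 8 reached a mean count of at least 10, the minimum for testing. The list had summed levels of 2667 to 3269 CPM in control and 1915 to 2187 CPM in LPS, lower in both LPS libraries, and Itgam was listed at 0 in every library. The part of this difference in the values of the clock genes was not tested. Astrocyte markers summed to 114 to 310.0 CPM in control and 130 to 440 CPM in LPS, and oligodendrocyte lineage markers to 68.5 to 404 CPM and 60.4 to 414 CPM. Fibroblast, endothelium and neuron markers summed to at most 64.3 CPM in any library. Of these lists 4 of 6, 3 of 5 and 1 of 5 markers were tested, and Pdgfrb and Pecam1 were listed at 0 in every library. The low sums therefore do not show that such cells were absent. No marker of any list passed the test between the groups. All 5 genes fixed to check the response (Il1b, Il6, Nos2, Cxcl10 and Ccl5) were called higher in LPS by edgeR's quasi-likelihood test. In bulk RNA, fewer cells of a type and less RNA per cell cannot be told apart.

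In the fit without a replicate block, no clock gene that could be tested was called changed after 4 h of LPS. Of the 10, 7 reached a mean count of at least 10 and were tested (Per2, Cry1, Cry2, Nr1d1, Nr1d2, Bhlhe40 and Nfil3), and 0 of 7 had an edgeR adjusted p under 0.05, while 8.34% of the 9548 genes tested did. At an unadjusted p under 0.05 there were 3, Nr1d2, Bhlhe40 and Nfil3, each with lower values in LPS, against 21.3% of all genes in either direction and 8.51% in the lower direction. DESeq2 gave 0 calls among the 6 that it assigned an adjusted p, where its share over all genes was 10.8%, and limma-trend gave 0 of 7, with 8.65%. Total-count scaling called 2 of 7 (Bhlhe40 and Nfil3) with 9.99% of all genes, and leaving out control replicate 2 called 1 of the 6 then tested (Bhlhe40) with 8.57%. A fit with the replicate number as a block called 4 of 7 (Cry1, Nr1d2, Bhlhe40 and Nfil3), with 30.7% of all genes. The labels do not tie that number to a shared culture. In the fit without a block, fitted values were below 0 for 6 of the 7, as for 53.6% of all genes. The median log2 fold change of the 7 was -0.74 against -0.05 over all genes tested. The groups did not overlap for 5 of the 7, with 4 lower and 1 higher in LPS, against 50.5% of all genes (25.8% lower and 24.7% higher). The 95% interval of each of the 7 reached beyond a 2-fold change in at least 1 direction.

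**Figure D1:**
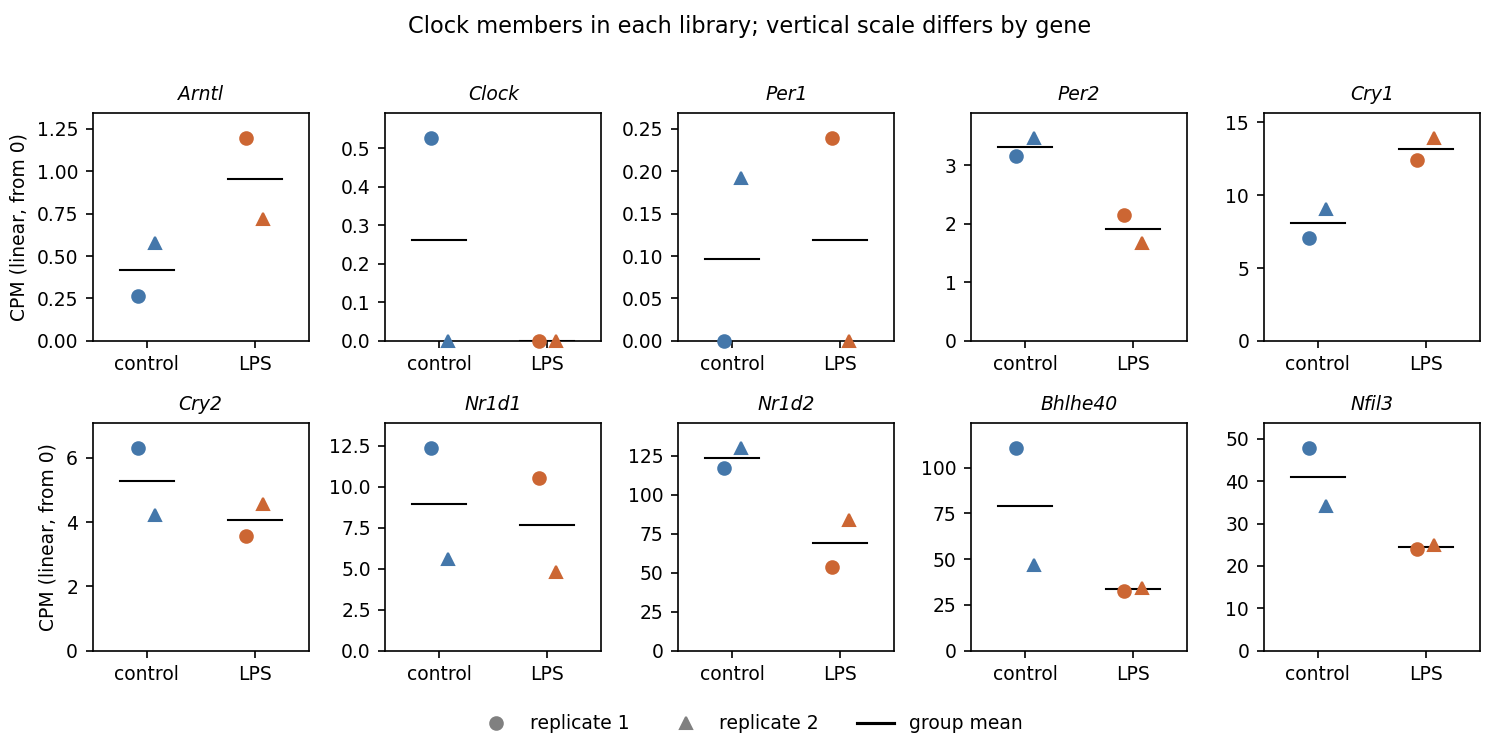
Level of each clock gene in the 4 libraries (CPM, linear axis from 0, scale set per gene), with circles for replicate 1, triangles for replicate 2 and a black line for the group mean. The LPS points of Per2, Nr1d2, Bhlhe40 and Nfil3 lie below both control points, those of Cry1 and Arntl lie above them, and Arntl, Clock and Per1 rest on at most 5 counts in any library.

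Promoter sequences are shown for 3 tested genes whose groups did not overlap, Cry1 with higher and Nr1d2 and Nfil3 with lower values in LPS. They are the RefSeq windows of 250 bases before and 50 bases from the annotated start (GRCm38.p6), which the reference held for 8 of the 10 genes (not for Per2 and Bhlhe40). Capitals mark any match, on either strand, to CACGTG (E-box), TTATGTAA or TTACGTAA (D-box), TGACGTCA (cAMP response element), AGGTCA (core of ROR and REV-ERB elements) or a form of the kappa-B element of NF-kB.
Cry1, chr10:85185005-85185304, minus strand: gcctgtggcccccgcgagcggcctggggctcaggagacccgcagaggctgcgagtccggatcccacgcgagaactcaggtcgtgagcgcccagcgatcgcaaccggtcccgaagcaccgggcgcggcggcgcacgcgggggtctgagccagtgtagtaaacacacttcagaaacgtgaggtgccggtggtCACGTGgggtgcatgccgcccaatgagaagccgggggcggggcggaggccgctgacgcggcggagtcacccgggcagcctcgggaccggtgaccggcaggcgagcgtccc
Nr1d2, chr14:18239057-18239356, minus strand: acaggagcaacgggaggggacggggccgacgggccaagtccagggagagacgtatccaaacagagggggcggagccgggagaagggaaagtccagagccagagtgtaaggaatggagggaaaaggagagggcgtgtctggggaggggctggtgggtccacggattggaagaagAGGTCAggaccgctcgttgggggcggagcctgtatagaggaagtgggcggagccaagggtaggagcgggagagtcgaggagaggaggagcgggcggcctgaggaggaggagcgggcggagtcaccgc
Nfil3, chr13:52980990-52981289, minus strand: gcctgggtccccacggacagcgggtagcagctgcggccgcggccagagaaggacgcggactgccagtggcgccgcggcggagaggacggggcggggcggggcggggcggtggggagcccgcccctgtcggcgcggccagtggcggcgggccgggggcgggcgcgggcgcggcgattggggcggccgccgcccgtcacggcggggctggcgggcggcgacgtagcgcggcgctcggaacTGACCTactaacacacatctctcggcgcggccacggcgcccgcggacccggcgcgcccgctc
The Cry1 window held an E-box that begins 60 bases before the annotated start, a motif found in 7.15% of 32851 windows of this length. The Nr1d2 window held AGGTCA from 77 bases before the start. The Nfil3 window held its reverse complement TGACCT from 12 bases before the start, and this core was found in 16.3% of windows. The core was also in windows of Arntl, Clock and Per1, which were not tested, and a window of Per1 held an E-box. No D-box (1.06% of windows), cAMP response element (1.79%) or kappa-B element (1.63%) was in any of the 12 windows of the 8 genes, and the windows of Cry2 and Nr1d1 held none of the motifs searched. A match is a description of letters, and a missing match says only that they are not in this window. The RefSeq extent of Nfil3 reaches further upstream than its window, to 52982878. Those of Arntl, Clock and Per1 also begin upstream of their windows, and sequence at these outer starts was not searched.

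The positive limb of the loop could not be measured. Arntl (chromosome 7, 113207465 to 113314126, GRCm38), which encodes the activator BMAL1, had 1 and 3 counts in the controls and 5 and 3 counts in LPS. From these counts LPS over control was 2.15, with a 95% counting interval of 0.577 to 9.78 (Clopper-Pearson, counting error only). Clock (chromosome 5, 76209868 to 76304792), the partner of BMAL1, had 2 and 0 counts in the controls and 0 in both LPS libraries, and Per1 (chromosome 11, 69095217 to 69109960), a repressor of the pair, had 0 and 1 counts in the controls and 1 and 0 in LPS. No fold is given for these, since neither group of libraries held more than 3 counts.

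These 3 genes are also the 3 members with more than 1 RefSeq accession in the table. Each had 2 accessions, and 1 of the 2 was at 0 in all 4 libraries. The other 7 members had 1 accession each and were all tested. Over the whole table, 46.8% of the 19106 named genes with 1 accession reached the minimum, against 11.7% of the 4801 with more than 1. Nono, an RNA-binding protein that PER proteins bind and that most cells express, had 2 accessions and was listed at 0 in every library. How reads that fit several accessions of a gene were counted is not stated in the sources used here, so these low counts do not show that Arntl, Clock or Per1 was silent, and the part of the counting in them was not tested.

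Nr1d2 (chromosome 14, 18204054 to 18239127), the REV-ERB beta receptor, had the most counts of the 10 genes. They were 447 and 676 counts in the controls and 226 and 349 counts in LPS, or 118 and 130 CPM against 54.0 and 83.7 CPM. Both LPS libraries lay below both controls, and the LPS libraries differed from each other by 1.55-fold. The mean was 124 ± 8.84 CPM in control and 68.8 ± 21.0 CPM in LPS (SD, n = 2 each). In the fit without a replicate block its log2 fold change was -0.85 ± 0.27 (SE, 95% interval -1.52 to -0.17). That did not pass the test over all genes (edgeR adjusted p = 0.15). The value was -0.56 without LPS replicate 1 and -1.19 without LPS replicate 2, and neither was called.

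Nr1d1 (chromosome 11, 98767932 to 98775333), the paralog REV-ERB alpha, had 47 and 29 counts in the controls and 44 and 20 counts in LPS. These were 12.4 and 5.58 CPM in control and 10.5 and 4.80 CPM in LPS, so that the groups overlapped and the libraries numbered 1 were about as far above those numbered 2 in control (2.22-fold) as in LPS (2.19-fold). The log2 fold change was -0.21 ± 0.57 (interval -1.63 to 1.20, edgeR adjusted p = 0.89), and its sign changed without control replicate 1 (0.44) and without LPS replicate 2 (0.25). In the GENCODE annotation Nr1d1 shares 263 exon bases with Thra, a thyroid hormone receptor gene on the opposite strand. Thra had 105 and 57 counts in the controls and 110 and 59 counts in LPS, again with more in the libraries numbered 1, and a log2 fold change of 0.08 ± 0.53 (adjusted p = 0.96). The libraries were directional, per the labels' protocols, but the strand setting of the counting is not given. Whether the counting kept reads of the shared bases apart by strand is therefore not known.

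Marker sums of other glia also differed between the libraries numbered 1 and 2. Oligodendrocyte lineage markers summed to 404 and 414 CPM in control and LPS replicate 1 and to 68.5 and 60.4 CPM in control and LPS replicate 2, while astrocyte markers summed to 114 and 130 CPM in the first and 310.0 and 440 CPM in the second. In the oligodendrocyte list 7 of 9 markers were tested, and in the astrocyte list 7 of 8, of which none was at 0 throughout. Their part in the values of Nr1d1 was not tested.

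**Figure D2:**
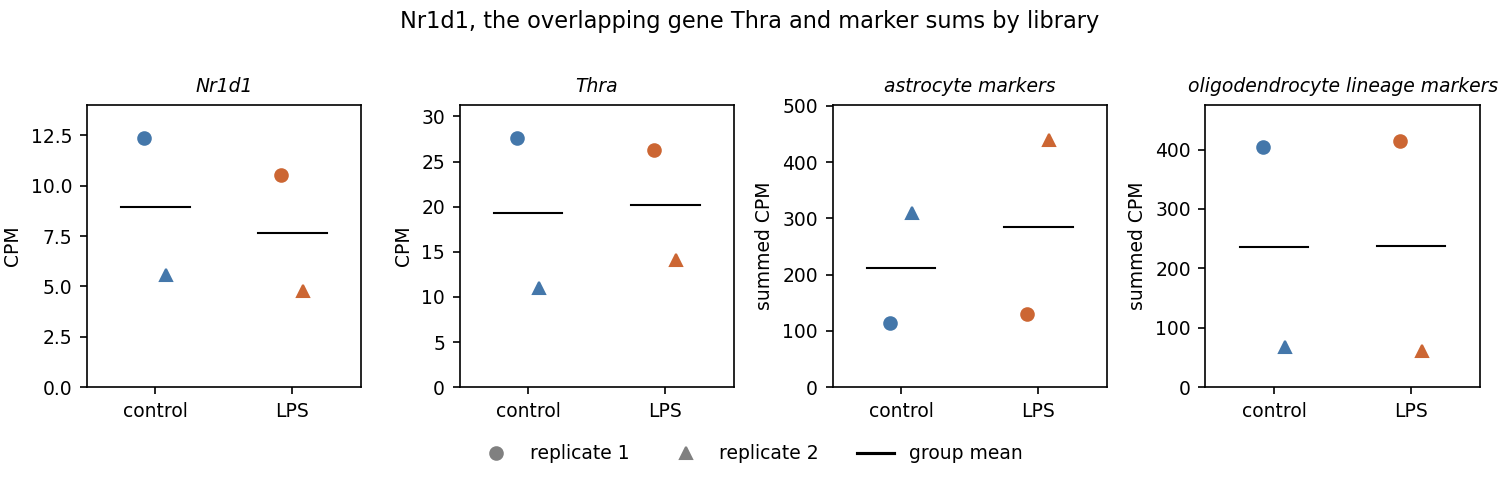
Levels of Nr1d1 and Thra and summed levels of the astrocyte and oligodendrocyte lineage markers (CPM, linear axes from 0) in each library, with circles for replicate 1, triangles for replicate 2 and black lines for group means. Nr1d1, Thra and the oligodendrocyte lineage sum are higher in both libraries numbered 1, and the astrocyte sum is higher in both libraries numbered 2.

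Bhlhe40 (chromosome 6, 108660629 to 108666925), also known as DEC1 and a repressor at E-boxes, had the lowest fitted value of the 7. It had 421 and 244 counts in the controls and 137 and 143 counts in LPS, which is 111 and 46.9 CPM against 32.7 and 34.3 CPM. Both LPS libraries were below both controls and close to each other (1.05-fold apart), while the controls were 2.36-fold apart. The means were 78.8 ± 45.1 CPM in control and 33.5 ± 1.12 CPM in LPS (SD, n = 2 each). The fitted log2 fold change was -1.23 ± 0.43, or 2.34-fold (control over LPS, 95% interval 1.12 to 4.89), and it was not called (edgeR adjusted p = 0.18). The value rested on control replicate 1, since without that library it was -0.49 (adjusted p = 0.51). Without control replicate 2 it was -1.75 and was called (adjusted p = 0.0066, range 0.0066 to 0.51 over the settings without a replicate block). Bhlhe40 was also called with total-count scaling (-1.60, adjusted p = 0.042), which moved the median of all genes from -0.05 to -0.48. It shares 118 exon bases with 0610040F04Rik on the opposite strand, which had 3 and 8 counts in the controls and 1 in each LPS library.

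Nfil3 (chromosome 13, 52967209 to 52981073), a basic leucine zipper repressor that competes at D-boxes, had 182 and 178 counts in the controls and 101 and 104 counts in LPS. In CPM these were 47.8 and 34.2 in control and 24.1 and 24.9 in LPS. The groups did not overlap, and the LPS libraries were nearly equal. Nfil3 had a log2 fold change of -0.74 ± 0.26 (interval -1.39 to -0.09), or 1.67-fold (control over LPS), without a call (edgeR adjusted p = 0.18), and it was -0.49 without control replicate 1. With total-count scaling Nfil3 was called (-1.14, adjusted p = 0.045, range 0.045 to 0.56 over the settings without a replicate block).

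Among the Per and Cry repressors, Cry1 (chromosome 10, 85131700 to 85185064) was the 1 tested member with a fitted value above 0. It had 27 and 47 counts in the controls and 52 and 58 counts in LPS, or 7.10 and 9.04 CPM against 12.4 and 13.9 CPM. Both LPS libraries were above both controls. The fitted log2 value was 0.70 ± 0.31 (interval -0.07 to 1.47, edgeR adjusted p = 0.28), and it stayed above 0 under each of the scalings tried, down to 0.26 with total-count scaling. Its paralog Cry2 (chromosome 2, 92403646 to 92434043) had 24 and 22 counts in the controls and 15 and 19 in LPS, and the groups overlapped in CPM (6.31 and 4.23 against 3.58 and 4.56). Cry2 had a log2 fold change of -0.36 ± 0.42 (interval -1.40 to 0.68, adjusted p = 0.72), which was -0.06 without control replicate 1 and -0.66 without control replicate 2. Cry2 also shares 295 exon bases with D930015M05Rik on the opposite strand, which had 4 and 2 counts in the controls and 1 and 2 in LPS. Whether Cry1 and Cry2 differed in response was not tested.

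Per2 (chromosome 1, 91415982 to 91459324), the Per gene that could be tested, lay just above the minimum, with 12 and 18 counts in the controls and 9 and 7 in LPS. These were 3.15 and 3.46 CPM in control and 2.15 and 1.68 CPM in LPS, with both LPS libraries lower. The log2 fold change was -0.78 ± 0.44 (interval -1.88 to 0.31, edgeR adjusted p = 0.40), and DESeq2 gave Per2 no adjusted p.

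**Figure D3:**
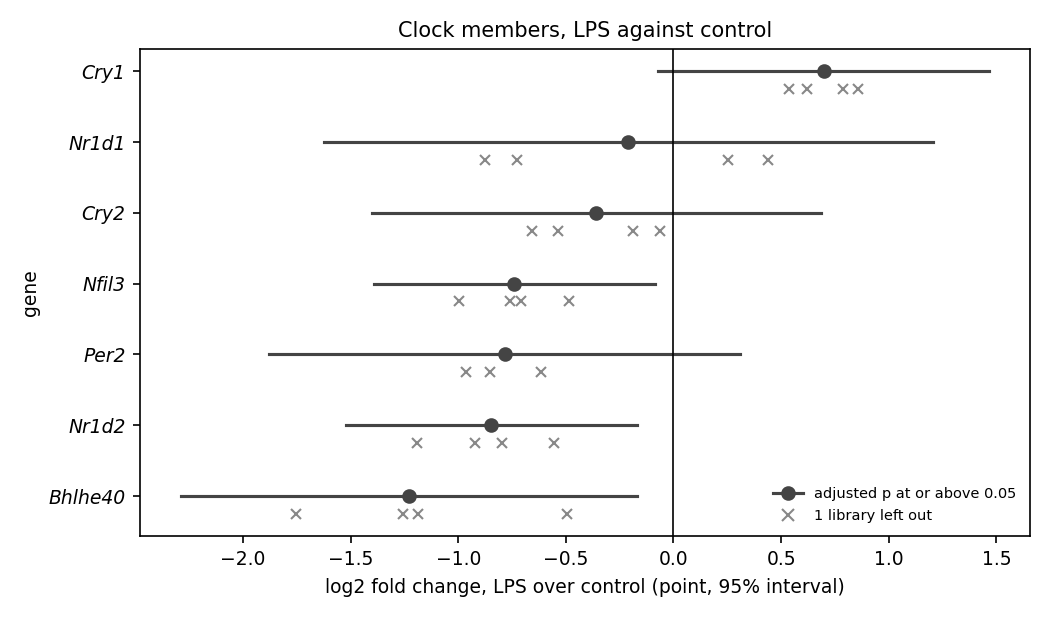
Fitted log2 fold changes of LPS over control for the 7 tested clock genes (points) with 95% intervals (lines), and the values with 1 library left out (crosses). The intervals of Nr1d2, Bhlhe40 and Nfil3 lie below 0 before adjustment over all genes, the crosses of Nr1d1 fall on both sides of 0, and those of Bhlhe40 run from -1.75 to -0.49.

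Levels were compared between genes per kilobase of the counted transcript, for the 7 genes with 1 accession. In control, Nr1d2 (25.2 to 27.9 CPM per kilobase), Bhlhe40 (15.1 to 35.6) and Nfil3 (16.9 to 23.6) were the most abundant. Bhlhe40 overlapped both of the others, and Nr1d2 lay above Nfil3 in both control libraries. A gap followed to Nr1d1 (2.05 to 4.54 CPM per kilobase) and Cry1 (2.35 to 2.99), which overlapped, and then came Cry2 (1.06 to 1.59) and Per2 (0.541 to 0.593). In LPS the levels of Nr1d2 (11.6 to 18.0 CPM per kilobase) and Nfil3 (11.9 to 12.3) overlapped, and Bhlhe40 (10.5 to 11.0) came below them. Cry1 (4.10 to 4.60 CPM per kilobase) lay above Nr1d1 (1.76 to 3.86) in LPS, followed by Cry2 (0.901 to 1.15) and Per2 (0.288 to 0.368). Nr1d2, Bhlhe40 and Nfil3 thus stayed above the other 4 genes in every library, on this scale of levels.

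**Figure D4:**
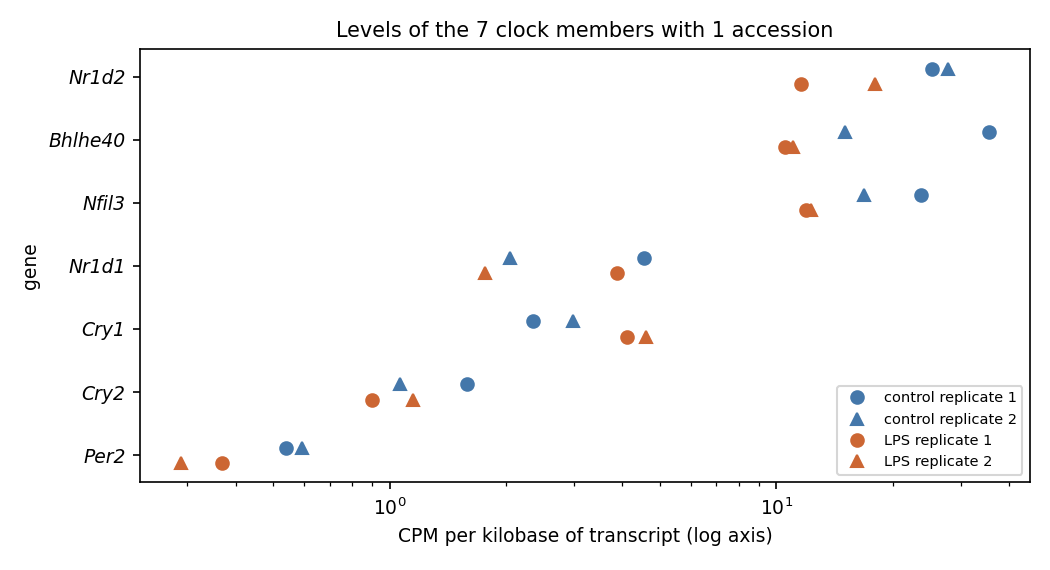
Levels of the 7 clock genes with 1 accession (CPM per kilobase of transcript, log axis) in each library, blue for control and orange for LPS, circles for replicate 1 and triangles for replicate 2. Nr1d2, Bhlhe40 and Nfil3 lie above 10 CPM per kilobase in all 4 libraries and the other genes below 5.

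Another 32 genes of the clock pathway were taken from textbook knowledge: further loop members, D-box activators, kinases, ubiquitin ligases and metabolic partners. Of these 14 were tested, 1 was called higher and 0 were called lower by edgeR (background 6.55% higher and 1.79% lower), and at an unadjusted p under 0.05 there were 3 higher (Nampt, Id2 and Usp7) and 0 lower, against 12.8% and 8.51% of all genes. Their median log2 fold change was 0.00. Of the 18 that were not tested, 14 had more than 1 accession, and 5 were listed at 0 in every library.

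The gene called was Nampt, the rate-limiting enzyme of NAD salvage, which is itself a target of CLOCK and BMAL1 and is known to be induced in activated macrophages. Nampt had 987 and 1795 counts in the controls and 6542 and 6462 counts in LPS, or 259 and 345 CPM against 1562 and 1550 CPM. Both LPS libraries were far above both controls. The log2 fold change was 2.36 ± 0.22, or 5.14-fold (edgeR adjusted p = 0.0033), and Nampt was called in all 14 alternative settings (1.92 to 2.55).

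Id2 and Csnk2a1 had the highest mean counts among the pathway genes without a call. Id2, an inhibitor of basic helix-loop-helix factors, had 338 and 299 CPM in control and 577 and 416 CPM in LPS (0.64 ± 0.23, edgeR adjusted p = 0.19). Csnk2a1, a catalytic subunit of casein kinase, had 318 and 320 CPM in control and 338 and 322 CPM in LPS, with an interval of the log2 fold change of -0.38 to 0.48, the narrowest among these genes. The D-box activators, which compete with Nfil3, had few counts. Hlf had 11 and 17 counts in the controls and 5 and 7 in LPS (-1.09 ± 0.47, edgeR adjusted p = 0.27). Dbp had 14 and 8 against 0 and 5 counts and was not tested. Tef, with 2 accessions, had at most 1 count in any library, which does not show that it was silent.

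**Figure D5:**
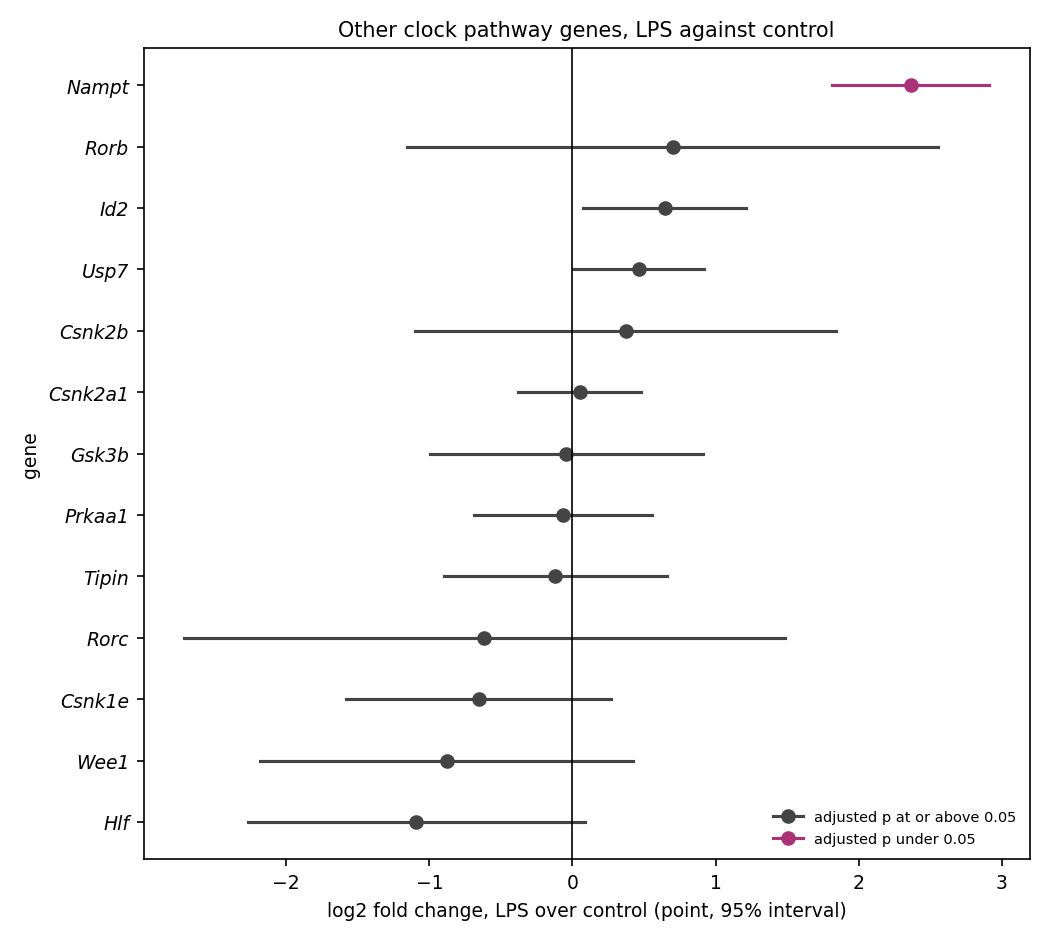
Fitted log2 fold changes of LPS over control with 95% intervals for 13 of the 14 tested genes of the wider clock pathway. Nampt, at 2.36, is the gene with an adjusted p under 0.05, and the other 12 lie between -1.09 and 0.70.

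The genes whose pattern over the 4 libraries was most like that of a clock gene were found for the members with the highest and the lowest fitted value, by the distance between log2 CPM centred on each gene's mean. For Cry1 these were Oser1 (distance 0.03), Adap2 (0.04) and Psmd14 (0.05), where Cry1 itself lay 0.75 from a flat pattern. Oser1 had 15.5 and 20.2 CPM in control and 27.7 and 30.7 CPM in LPS. For Bhlhe40, at 1.40 from a flat pattern, they were B4gat1 (0.09), Gpr34 (0.23) and Orai3 (0.25). B4gat1 had 12.1 and 5.00 CPM in control and 3.34 and 3.84 CPM in LPS, and like Bhlhe40 it was higher in control replicate 1 than in the other libraries. Gpr34 had 5.52 and 1.92 CPM in control and 1.19 and 1.20 CPM in LPS, so its pattern rests on few counts. None of these 6 genes was called by edgeR.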

How the data were processed

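Clock genes and lists were chosen with earlier results of these data known. The file the authors deposited holds counts for 32915 RefSeq accessions in 4 columns, 1 per library. Its name calls the counts normalized, but they are whole, with differing totals, and were treated as raw counts. If they were rescaled, the counting error is not as stated. Build mm10, HTSeq 0.6.1, TopHat2 2.0.10, Cufflinks 2.2.1, Trimmomatic 0.33 and CASAVA 1.8.2 are listed, without roles, per the submitters' processing notes. The sources used here do not give the counting mode, strand setting or annotation. Libraries were ribosomal RNA-depleted and directional, per the labels' protocols.

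Accessions were named from RefSeq GRCm38.p6 (32487) or GENCODE (187), and 241 stayed unnamed (20.1% to 24.9% of counts per library; kept as features). Counts were summed per gene. Those averaging 10 counts or more were tested with edgeR 4.0.16 (R 4.3.3): TMM, quasi-likelihood, 4 libraries, no covariate, two-sided, Benjamini-Hochberg at 0.05. The standard error is the log2 fold change divided by the root of F, and its 95% interval uses the test's degrees of freedom. Patterns used log2(CPM + 0.25). DESeq2 1.42.0, limma 3.58.1 (log2(count + 1)), 3 other scalings, 2 other filters, 2 treatments of accessions, a replicate block and each library left out were alternatives. The test was checked on simulated counts. All 10 members were named; of the pathway genes, those called and the 3 with the highest mean counts among the others, of which 1 is not reported here. Usp7, Hlf, Dbp, Tef and Nono were chosen after their values were seen.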

Additional observations from a re-analysis of the deposited data

How the results depend on the processing

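Of 92 values of the 7 tested clock genes under 14 alternatives, 83 kept their direction and their side of the threshold, 7 became calls and 2, both of Nr1d1, changed sign (0.44 without control replicate 1 and 0.25 without LPS replicate 2). The number of clock genes called was 0, but 2 with total-count scaling (Bhlhe40 and Nfil3), and with 1 library left out it ranged from 0 to 1 (Bhlhe40, without control replicate 2). Over all genes 796 were called, 372 to 799 with 1 library left out; the 372 were left without LPS replicate 1, and 458 without LPS replicate 2. Genes called higher made up 78.5% of calls, 49.4% with total-count scaling and 62.7% with upper-quartile scaling, which had a median log2 fold change of -0.28. Per2 had no value without control replicate 2 or with a minimum mean of 50, which also left out Cry1, Cry2 and Nr1d1. Without a filter Arntl, Clock and Per1 were fitted too and not called.

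Libraries share replicate numbers, but the labels do not say that a number marks a shared culture, and 2 pairs are too few to settle it. The differences between numbers 2 and 1 correlated over genes between control and LPS (Pearson's r = 0.67, 9548 genes, which are not independent). With the replicate number as a block, 2935 genes were called (30.7%), and of the clock genes 4, Cry1 (0.70, adjusted p = 0.043), Nr1d2 (-0.87, 6.5e-05), Bhlhe40 (-1.13, 3.0e-04) and Nfil3 (-0.72, 0.0041), while the pathway genes called were 3 (Nampt, Id2 and Usp7).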
